A study of Mus musculus with 15 samples.

Results

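The transcripts described here are the RNAs that the mitochondrial genome encodes for cytochrome c oxidase (mt-Co1, mt-Co2, mt-Co3), ATP synthase (mt-Atp6, mt-Atp8), cytochrome b (mt-Cytb) and the mitochondrial ribosome (the 12S rRNA mt-Rnr1 and the 16S rRNA mt-Rnr2). They were taken as every listed transcript whose GENCODE M21 gene name is 1 of these 8 names. Each name had a single listed transcript, so there were 8 of 10370 transcripts, 6 of them mRNAs. The remaining 7 listed transcripts of the mitochondrial genome are mRNAs of complex I and serve only for comparison.

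RNA came from dissected cortex of male C57BL/6 mice (C57Bl/6J in the study's methods) with a labelled age of 12 weeks, collected 1 month after either high-frequency head impact, abbreviated HF-HI (8 libraries), or the Sham procedure (7 libraries). Per the study's methods, HF-HI mice received series of impacts to the head on consecutive days under isoflurane, and Sham mice had the same handling and isoflurane without impacts, so anesthesia was shared by both groups. Isoflurane exposure without impact is therefore in the control group, and no group without anesthesia was analysed here. The labels do not say that a library is a single animal, so p-values measure the spread between these libraries. Ribosomal RNA was removed before sequencing with beads that, per the kit, target mitochondrial as well as cytoplasmic rRNA, and the rRNA levels given here are what was left after that removal. Levels are normalized counts, which are reads divided by the size factor of a library, the number that scales it to the depth of the others. A gap separated 5 libraries below 0.9 (replicate 3 of Sham and replicates 2, 4, 6 and 7 of HF-HI, called shallow here, with size factors of 0.501 to 0.818) from 10 deeper ones (0.984 to 1.47). That limit was chosen after the data were seen. Because 4 of the 5 are HF-HI libraries, depth and group are partly confounded. HF-HI replicate 2 also stood apart on the first principal component of all transcripts (14.3% of the variance), at 12.6 against −3.35 to 0.721 for the other 14, and results that rest on it are given without it as well. All 12 cortical neuron genes of the marker list had transcripts in the table, whereas the choroid plexus gene Ttr lay at 6589 or more normalized counts in 4 libraries (the first 2 replicates of Sham, and HF-HI replicates 2 and 5) and at 176 or fewer in the other 11.

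The mitochondrial genome is a small circular DNA, present in many copies per cell. Its heavy strand is transcribed into long precursors that are cut, mostly at the tRNAs lying between genes, into both rRNAs and all but a single mRNA, so the RNAs described here share a promoter region and a precursor, and their levels depend on processing and decay as well as on transcription. A shorter transcription unit that ends after mt-Rnr2 has been proposed to supply extra rRNA. Complex IV takes its catalytic core from mt-Co1, mt-Co2 and mt-Co3 and its other subunits from nuclear genes. Neurons rely heavily on this machinery, because restoring ion gradients after synaptic activity consumes ATP.

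Positions on the mitochondrial chromosome (GRCm38/mm10, GENCODE M21, all on the plus strand and without introns) follow the order mt-Rnr1 (chrM:70-1024, 955 bases), mt-Rnr2 (chrM:1094-2675, 1582 bases), mt-Co1 (chrM:5328-6872, 1545 bases), mt-Co2 (chrM:7013-7696, 684 bases), mt-Atp8 (chrM:7766-7969, 204 bases), mt-Atp6 (chrM:7927-8607, 681 bases), mt-Co3 (chrM:8607-9390, 784 bases) and mt-Cytb (chrM:14145-15288, 1144 bases). The reading frames of mt-Atp8 and mt-Atp6 lie on the same RNA and overlap by 43 bases (chrM:7927-7969), which are 21.1% of mt-Atp8 and 6.31% of mt-Atp6, so reads from that stretch were divided between both by the authors' estimate of counts. The whole mt-Atp8 sequence and the first 100 bases of mt-Atp6 are shown because the 2 values are not fully separate measurements, with the shared bases in capitals.
mt-Atp8: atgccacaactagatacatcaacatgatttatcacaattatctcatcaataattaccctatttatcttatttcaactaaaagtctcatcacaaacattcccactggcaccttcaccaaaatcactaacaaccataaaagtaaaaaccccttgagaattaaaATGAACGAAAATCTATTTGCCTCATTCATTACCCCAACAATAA
mt-Atp6: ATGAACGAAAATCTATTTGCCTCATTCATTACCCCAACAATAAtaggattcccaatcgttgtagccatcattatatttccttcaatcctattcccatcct

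The annotated mt-Co3 and mt-Cytb end 1 base past their last full codon, on a T that becomes a stop codon only when the mRNA is polyadenylated. The last 30 bases of each are shown with that base in capitals, since these ends are defined by RNA processing.
mt-Co3: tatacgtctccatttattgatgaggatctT
mt-Cytb: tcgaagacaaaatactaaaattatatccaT

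Part of the mitochondrial genome has been copied into nuclear chromosomes, and such copies can take or lend reads. The share of 100-base windows (the read length) found letter for letter in an annotated transcript outside the mitochondrial genome was 30.8% for mt-Co1, 99.5% for mt-Co2, 99.85% for mt-Co3 and 99.5% for mt-Atp6, and 0 for mt-Atp8, mt-Cytb, mt-Rnr1 and mt-Rnr2. The pseudogenes Gm28661, Gm28437 and Gm10925 on chromosome 1 matched mt-Co2, mt-Co3 and mt-Atp6 over 681, 783 and 678 bases with no mismatch, and were not analysed here. Values of mt-Co1, mt-Co2, mt-Co3 and mt-Atp6 are uncertain to the extent that reads were divided with these copies. A pair of less similar copies on chromosome 2 was listed in the table. Gm13340 (chr2:22588103-22589647, minus strand) differs from mt-Co1 at 37 of 1545 bases, and Gm13341 (chr2:22587291-22587962, minus strand) differs from mt-Co2 at 16 of 672 aligned bases. The 60 ungapped bases in which each pair differs most are shown, with differing bases in capitals, because they are what tells reads of the copy from reads of the mitochondrial gene.
mt-Co1 (chrM:5787-5846): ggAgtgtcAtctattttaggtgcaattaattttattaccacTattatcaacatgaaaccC
Gm13340 (chr2:22589129-22589188): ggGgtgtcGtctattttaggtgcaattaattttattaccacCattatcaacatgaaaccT
mt-Co2 (chrM:7457-7516): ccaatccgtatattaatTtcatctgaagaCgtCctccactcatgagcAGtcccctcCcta
Gm13341 (chr2:22587471-22587530): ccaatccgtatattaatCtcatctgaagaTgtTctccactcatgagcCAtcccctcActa

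These RNAs were among the most abundant of the table. By mean normalized count, mt-Rnr2 ranked 2, mt-Co1 3, mt-Co3 5, mt-Co2 6, mt-Rnr1 8, mt-Atp6 15, mt-Cytb 27 and mt-Atp8 41 of 10370, and together they held 4.97 to 6.43% of the normalized counts of a Sham library and 3.56 to 5.99% of an HF-HI library. Per kilobase of transcript, the Sham means were ordered as mt-Rnr2 (83122 ± 22358 normalized counts per kilobase), mt-Co1 (74438 ± 5896 normalized counts per kilobase), mt-Co3 (69246 ± 3102 normalized counts per kilobase), mt-Atp8 (53131 ± 5203 normalized counts per kilobase), mt-Co2 (51652 ± 5866 normalized counts per kilobase), mt-Rnr1 (29297 ± 8964 normalized counts per kilobase), mt-Atp6 (26913 ± 3455 normalized counts per kilobase) and mt-Cytb (11616 ± 1020.2 normalized counts per kilobase). Neighbours in this order differed by less than the larger of their SDs for mt-Rnr2 and mt-Co1, for mt-Co1 and mt-Co3, for mt-Atp8 and mt-Co2, and for mt-Rnr1 and mt-Atp6. The steps from mt-Co3 to mt-Atp8, from mt-Co2 to mt-Rnr1 and from mt-Atp6 to mt-Cytb exceeded both SDs. In HF-HI the order by mean was mt-Rnr2, mt-Co1, mt-Co3, mt-Atp8, mt-Co2, mt-Rnr1, mt-Atp6 and mt-Cytb, with mt-Co1 at 63829.8 ± 12004 and mt-Rnr2 at 67914 ± 21921 normalized counts per kilobase. The level of mt-Atp8 per kilobase is uncertain, because its 204 bases leave few places for a read pair to lie. Those of mt-Co1, mt-Co2, mt-Co3 and mt-Atp6 are uncertain to the extent that reads were divided with nuclear copies. Those of both rRNAs also reflect how much the depletion left.

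Levels of all 6 mRNAs were lower on average in HF-HI than in Sham, by 14.3% for mt-Co1 to 22.7% for mt-Atp6, and so were those of the rRNAs, by 19.3% for mt-Rnr1 and 18.3% for mt-Rnr2. With limma, 0 of the 8 passed the adjusted threshold of 0.1 against 0% of all 10370 transcripts, and voom on the recovered reads also gave 0. An unadjusted p under 0.05 was reached by 5 of the 6 mRNAs and neither rRNA, all 5 lower, against a background of 8.83% of all 10370 transcripts (3.9% lower and 4.94% higher). For mt-Co1, mt-Co2, mt-Co3, mt-Atp6 and mt-Cytb, the HF-HI libraries below every Sham library were the 4 shallow ones. VSD differences below are on the log2 scale of the authors' variance-stabilized data, which compresses differences between low counts. In bulk tissue, fewer cells rich in mitochondria and less of these RNAs per cell cannot be told apart.

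mt-Co1 encodes the catalytic subunit of cytochrome c oxidase, the enzyme that passes electrons to oxygen. Among the 7 Sham libraries it ran from 99102 normalized counts (replicate 3) over a median of 116097 to 125985 (replicate 4). Among the 8 HF-HI libraries it ran from 72065 (replicate 2) over 100818 to 120847 (replicate 8). In all, 4 of the 8 HF-HI libraries lay below every Sham library, and the other 4 lay inside the Sham range. The mean normalized counts were 115007 ± 9109.6 in Sham against 98617 ± 18546 in HF-HI (SD, n = 7 and 8), and the fit gave a VSD difference of −0.24 (95% interval −0.47 to −0.00, limma unadjusted p = 0.0469, adjusted p = 0.561).

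mt-Co2 carries the copper site that accepts electrons from cytochrome c. Its normalized counts in Sham had a minimum of 27051 in replicate 3, a median of 36468 and a maximum of 38798 in replicate 4. In HF-HI they had a minimum of 18588 in replicate 2, a median of 29479 and a maximum of 36308 in replicate 5. No HF-HI library reached the Sham median, and the 4 shallow ones lay below the lowest Sham value. On average there were 35330.3 ± 4012 in Sham against 28859 ± 6937 in HF-HI normalized counts, and the fit gave a VSD difference of −0.30 (95% interval −0.59 to −0.02, limma unadjusted p = 0.0383, adjusted p = 0.539).

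mt-Co3 is the remaining core subunit of the oxidase. Sham libraries held between 50625 (replicate 5) and 56957 (replicate 4) normalized counts of it, with a median of 54788. HF-HI libraries held between 34029 (replicate 2) and 54729.6 (replicate 5), with a median of 48039. The Sham values were the tightest among the 8 RNAs, with a coefficient of variation of 4.48%. HF-HI libraries split as for mt-Co1, with 4 below every Sham library. The mean normalized counts were 54289 ± 2432 in Sham against 46375 ± 7229 in HF-HI, and the fit gave a VSD difference of −0.23 (95% interval −0.42 to −0.05, limma unadjusted p = 0.0161, adjusted p = 0.461), the smallest p of the 8 RNAs.

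mt-Atp6 encodes the membrane subunit that conducts protons through ATP synthase. Among the 7 Sham libraries it ran from 13166 normalized counts (replicate 3) over a median of 18924 to 19965 (replicate 4). Among the 8 HF-HI libraries it ran from 7090.0 (replicate 2) over 14309.7 to 18908 (replicate 3). The 4 shallow HF-HI libraries lay below every Sham library. The other 4 reached from 16491 to 18908, and the 6 deeper Sham libraries from 18198 to 19965. Averaged over libraries, normalized counts were 18328 ± 2353 in Sham against 14165 ± 4479 in HF-HI, and the fit gave a VSD difference of −0.38 (95% interval −0.74 to −0.02, limma unadjusted p = 0.0378, adjusted p = 0.539), the largest difference of the 8.

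mt-Atp8 encodes a small subunit of the same enzyme and is read from the same RNA. Its normalized counts in Sham had a minimum of 8913 in replicate 3, a median of 10811 and a maximum of 12109 in replicate 5. In HF-HI they had a minimum of 3302 in replicate 2, a median of 9183 and a maximum of 11206 in replicate 8. HF-HI replicate 2 stood far below the rest, and 3 of 8 HF-HI libraries lay below every Sham library. The mean normalized counts were 10839 ± 1061 in Sham against 8768 ± 2396 in HF-HI, and the fit gave a VSD difference of −0.31 (95% interval −0.64 to 0.03, limma unadjusted p = 0.0726, adjusted p = 0.598), which did not pass. Without HF-HI replicate 2 the VSD difference was −0.16 (limma unadjusted p = 0.0262, adjusted p = 0.507, range over the alternatives 0.507 to 0.997).

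mt-Cytb encodes cytochrome b, the only subunit of complex III made in mitochondria. Sham libraries held between 10917 (replicate 3) and 14734 (replicate 4) normalized counts of it, with a median of 13389.8. HF-HI libraries held between 5725 (replicate 2) and 13513 (replicate 8), with a median of 11270.2. The shallow libraries were again the lowest. On average there were 13289 ± 1167 in Sham against 10909.9 ± 2628 in HF-HI normalized counts, and the fit gave a VSD difference of −0.28 (95% interval −0.55 to −0.01, limma unadjusted p = 0.0454, adjusted p = 0.557).

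mt-Rnr1 is the RNA of the small mitochondrial ribosomal subunit. Among the 7 Sham libraries it ran from 17625 normalized counts (replicate 7) over a median of 27653 to 43083 (replicate 5). Among the 8 HF-HI libraries it ran from 12857 (replicate 2) over 22288 to 30594 (replicate 8). The groups overlapped almost wholly, with 1 HF-HI library below every Sham library, and both the highest value (replicate 5) and the lowest value (replicate 7) of Sham came from deep libraries. The mean normalized counts were 27978 ± 8561 in Sham against 22566 ± 5406 in HF-HI, and the fit gave a VSD difference of −0.27 (95% interval −0.66 to 0.11, limma unadjusted p = 0.151, adjusted p = 0.694).

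mt-Rnr2 is the RNA of the large subunit. Its normalized counts in Sham had a minimum of 70379.9 in replicate 5, a median of 125696 and a maximum of 175333 in replicate 2. In HF-HI they had a minimum of 60451 in replicate 7, a median of 109406 and a maximum of 146569 in replicate 5. Sham replicate 5 was as low as the shallow HF-HI libraries, and only HF-HI replicate 7 lay below every Sham library. Averaged over libraries, normalized counts were 131499.5 ± 35370.3 in Sham against 107440.5 ± 34679 in HF-HI, and the fit gave a VSD difference of −0.31 (95% interval −0.78 to 0.17, limma unadjusted p = 0.193, adjusted p = 0.725). Without Sham replicate 5 the VSD difference was −0.44 (limma unadjusted p = 0.0479, adjusted p = 0.551, range over the alternatives 0.551 to 0.998). The coefficient of variation in Sham was 30.6% for mt-Rnr1 and 26.9% for mt-Rnr2, against 4.48 to 12.8% for the mRNAs.

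**Figure D1:**
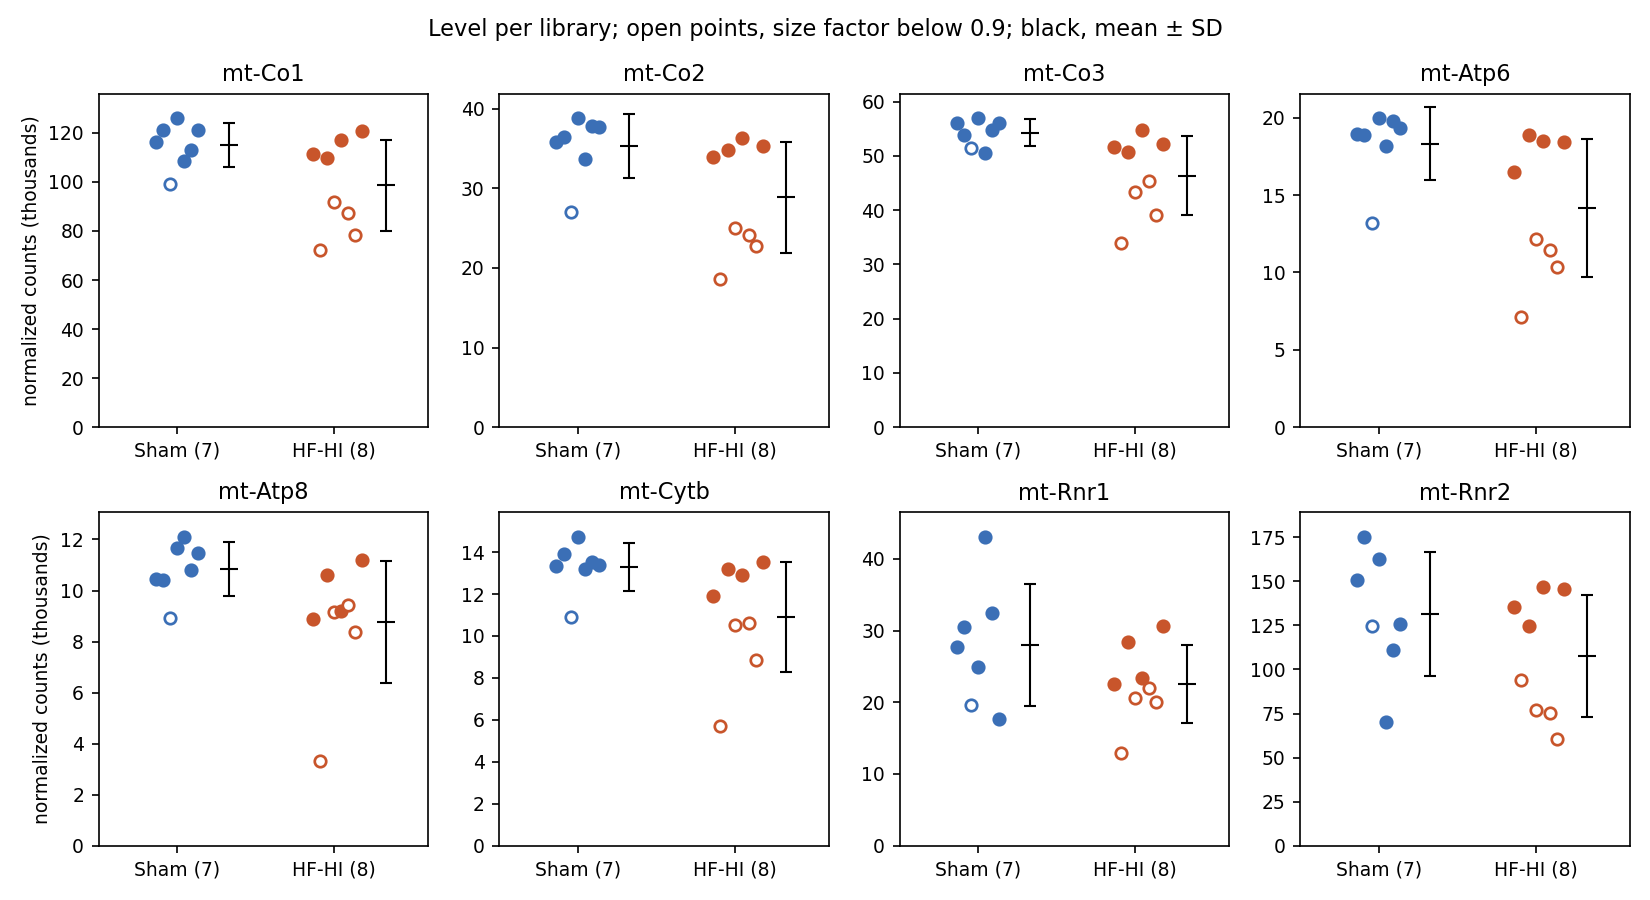
Normalized counts (linear axes from 0) of each RNA in the 7 Sham and 8 HF-HI libraries, with the mean and SD of each group in black and libraries with a size factor below 0.9 as open points. The open points are the lowest of their group for mt-Co1, mt-Co2, mt-Atp6 and mt-Cytb, while filled points of both groups lie at similar heights, and the rRNAs are scattered in Sham as well.

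With a single library left out in turn, mt-Co3 kept an unadjusted p under 0.05 in all 15 fits (0.00640 to 0.0339, limma). The other 4 passed mRNAs did not: mt-Co1 kept it in 5, mt-Co2 in 6, mt-Atp6 in 5 and mt-Cytb in 6 of 15. The count of passed RNAs fell from 5 to 1 when any of the deeper Sham libraries except replicate 5, or any of the shallow HF-HI libraries except replicate 2, was the one left out. Without Sham replicate 5 there were 3 (mt-Co2, mt-Co3 and mt-Rnr2), without HF-HI replicate 2 also 3 (mt-Co3, mt-Atp8 and mt-Cytb), and without HF-HI replicate 8 there were 6. Of all 10370 transcripts, 748 to 878 passed in the fits that left 1 of these RNAs, against 916 with all libraries. Without Sham replicate 5, HF-HI replicate 2 and HF-HI replicate 8 they numbered 927, 901 and 929.

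The 5 shallow libraries were the 5 lowest of all 15 for mt-Co1, mt-Co2, mt-Atp6 and mt-Cytb, with no overlap with the other 10. Of all 10370 transcripts, 53 (0.511%) showed this separation, and besides these 4 RNAs they included 3 of the 7 complex I mRNAs of the mitochondrial genome (mt-Nd1, mt-Nd3 and mt-Nd4). For mt-Atp6 the 5 libraries spanned 7090.0 to 13166 normalized counts and the other 10 spanned 16491 to 19965. Sham replicate 3, the only shallow Sham library, had 13166, above the 11472 of HF-HI replicate 6, which has nearly the same size factor (0.818 and 0.813). For mt-Co2 these libraries had 27051 and 24129, and for mt-Rnr2 they had 124781 and 75512. For mt-Co1 they had 99102 and 87430, for mt-Co3 51481 and 45318, and for mt-Cytb 10917 and 10628. The order was the opposite for mt-Atp8 (8913 and 9422) and mt-Rnr1 (19662 and 22040). Each group has a single library here, so the pair does not show a difference between groups.

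Among the 10 deeper libraries (6 Sham, 4 HF-HI), mt-Co1 averaged 117658 ± 6368 in Sham against 114816 ± 4999 in HF-HI normalized counts, a VSD difference of −0.03 (95% interval −0.16 to 0.09). The same subset gave −0.08 for mt-Atp6 (−0.17 to 0.01) and 0.11 for mt-Rnr2 (−0.38 to 0.61), so the sign for mt-Rnr2 was the opposite. Only mt-Atp8 had an unadjusted p under 0.05 in this subset, from 11159.7 ± 698 in Sham to 9978 ± 1110.1 in HF-HI (VSD difference −0.14, limma unadjusted p = 0.0440, adjusted p = 0.913, with 3 of 4 HF-HI libraries below that Sham mean), against 5.24% of all transcripts. Among the 9 libraries with a size factor above 1 (6 Sham, 3 HF-HI) it did not (limma unadjusted p = 0.148), nor did any of the other 7, against 5.22% of all transcripts and 0.00964% at the adjusted threshold.

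With log2 size factor as a covariate over all 15 libraries, none of the 8 RNAs had an unadjusted p under 0.05, against 5.14% of all transcripts. The VSD differences (95% intervals) were −0.02 (−0.21 to 0.18) for mt-Co1, −0.01 (−0.21 to 0.20) for mt-Co2, −0.07 (−0.23 to 0.09) for mt-Co3 and −0.02 (−0.29 to 0.26) for mt-Atp6. They were −0.10 (−0.47 to 0.28) for mt-Atp8, −0.04 (−0.29 to 0.21) for mt-Cytb, 0.01 (−0.39 to 0.41) for mt-Rnr1 and 0.02 (−0.49 to 0.53) for mt-Rnr2, so both rRNAs changed sign. The lower bounds for mt-Co1, mt-Co2, mt-Co3 and mt-Atp6 lay above the differences of the fit without depth, whereas the intervals of mt-Atp8, mt-Cytb, mt-Rnr1 and mt-Rnr2 included them. Those differences have intervals of their own, which overlapped the ones with depth for each RNA, so this is a description only. A group difference and a depth difference cannot be fully told apart in these libraries.

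**Figure D2:**
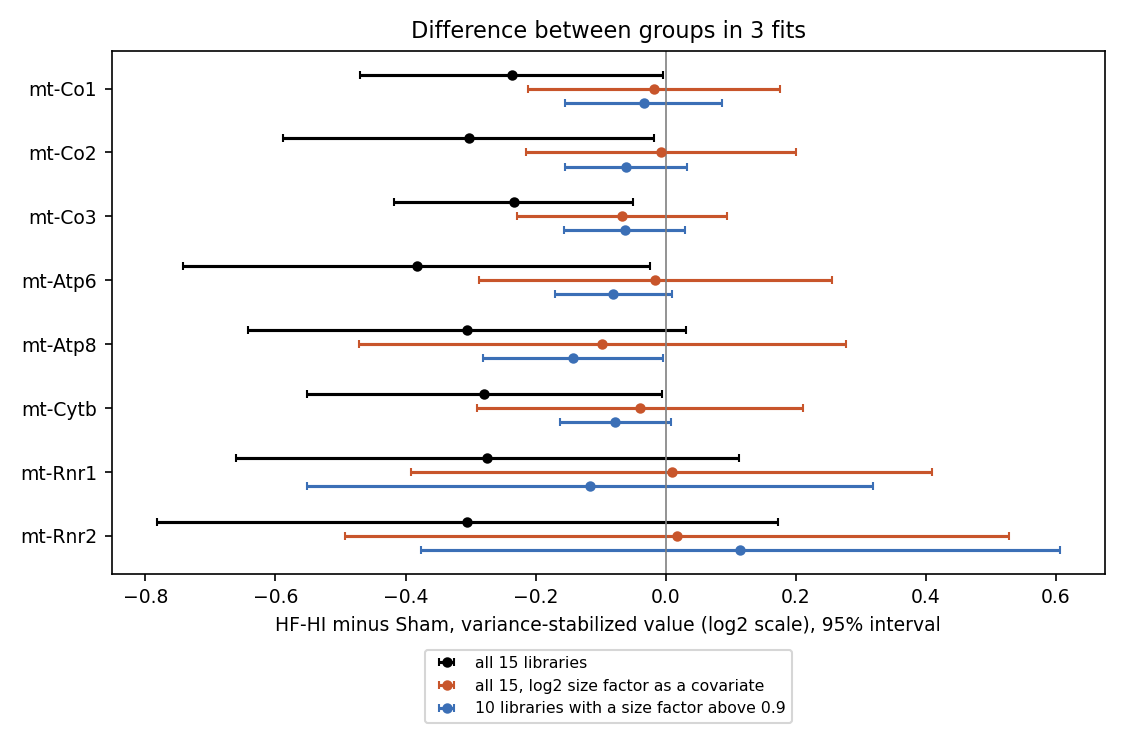
VSD difference (HF-HI minus Sham, log2 scale) of each RNA with its 95% interval in 3 fits. In black, with all 15 libraries, the intervals of 5 mRNAs lie below 0, and with depth as a covariate or in the 10 deeper libraries all but that of mt-Atp8 in the latter span 0.

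Across libraries, 15 relations were computed on log2 of normalized counts, those of the 8 RNAs with log2 size factor and those of the other 7 with mt-Rnr2, and p-values were adjusted over the 15 with the Benjamini-Hochberg method. For the 4 mRNAs whose values fell into separate clusters no pooled correlation with size factor or mt-Rnr2 is given as a relation, and all were also computed within the 10 deeper libraries. For the others, the correlation with log2 size factor over 15 libraries was r = 0.826 and rho = 0.793 for mt-Co3 (permutation p = 3.4e-04 and 7.1e-04, adjusted 0.00127 and 0.00212) and r = 0.593 and rho = 0.836 for mt-Atp8 (permutation p = 0.0146 and 2.3e-04, adjusted 0.0199 and 0.00115). It was r = 0.648 and rho = 0.611 for mt-Rnr1 (permutation p = 0.00839 and 0.0176, adjusted 0.0140 and 0.0220) and r = 0.605 and rho = 0.479 for mt-Rnr2 (permutation p = 0.0165 and 0.0734, adjusted 0.0206 and 0.0847). Without HF-HI replicates 4 and 7, farthest from the median depth, r was 0.807 for mt-Co3, 0.788 for mt-Atp8, 0.724 for mt-Rnr1 and 0.321 for mt-Rnr2, so the relation of mt-Rnr2 rests largely on those libraries.

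As descriptions within groups, with no test, r over the 8 HF-HI libraries with log2 size factor was 0.809 for mt-Co3, 0.437 for mt-Atp8, 0.672 for mt-Rnr1 and 0.873 for mt-Rnr2. Over the 7 Sham libraries the same values were 0.456, 0.846, 0.50 and −0.165, in that order. Without Sham replicate 3 they were 0.0416, 0.467, 0.241 and −0.362, and without Sham replicate 5 they were 0.939, 0.840, 0.417 and 0.191, so several values within Sham change with 1 library left out. Within the 10 deeper libraries r ranged from −0.311 for mt-Rnr2 to 0.663 for mt-Atp8, and none of the 8 had an adjusted permutation p under 0.05 (from 0.189 to 0.750). For mt-Co1, mt-Co2, mt-Atp6 and mt-Cytb it was 0.116, 0.376, 0.646 and 0.601, with rho of 0.139, 0.345, 0.527 and 0.309. Without HF-HI replicate 1 and Sham replicate 4 these r were −0.530, −0.214, −0.01 and −0.355.

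**Figure D3:**
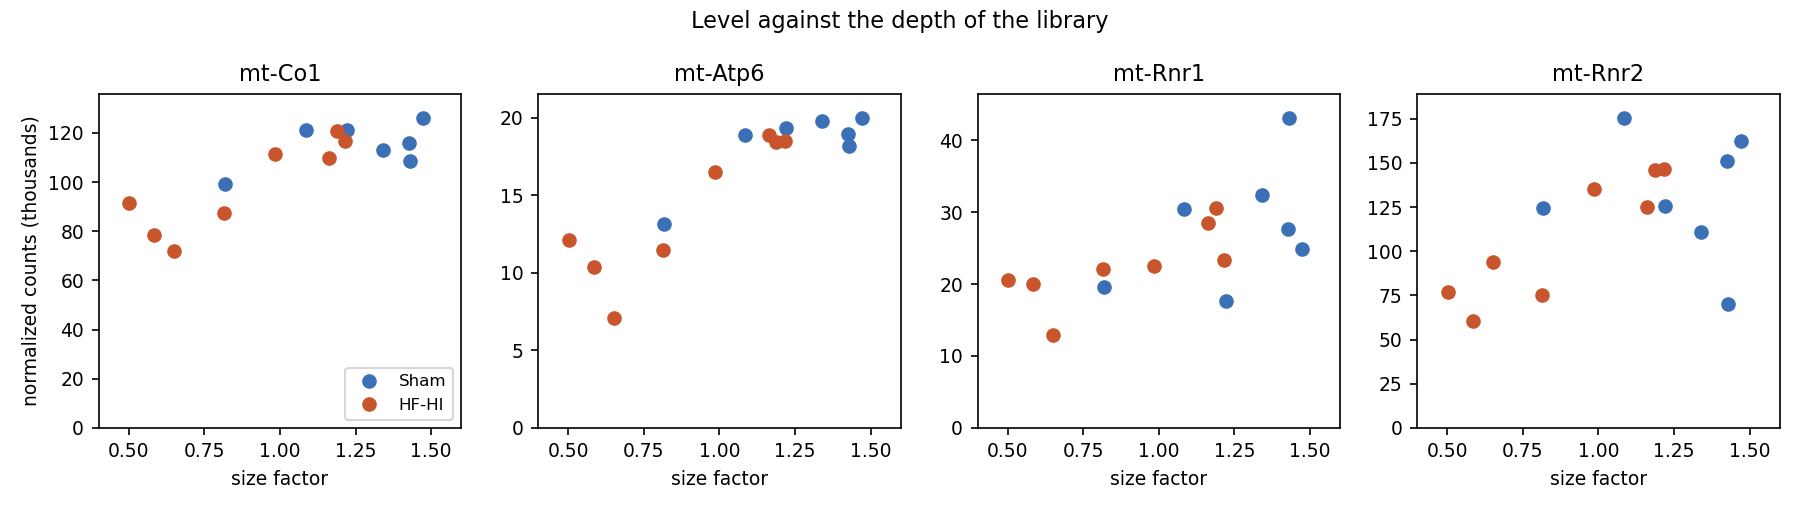
Normalized counts (linear axes from 0) of mt-Co1, mt-Atp6, mt-Rnr1 and mt-Rnr2 against the size factor of the library, for Sham (blue) and HF-HI (orange). Values of mt-Co1 and mt-Atp6 lie lower in the 5 libraries below 0.9, only 1 of them Sham, than in the other 10. The value of mt-Rnr2 in Sham replicate 5 is low at a size factor of 1.43.

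The mRNAs were next set against the rRNAs of the same library, which removes whatever scales all mitochondrial RNA alike. The rRNAs are what depletion left, so ratios to them, and between them, also carry any difference in depletion between libraries. Summed over the 6 mRNAs and both rRNAs, the mRNA to rRNA ratio ran from 1.24 over a median of 1.46 to 2.08 in Sham, and from 1.32 over 1.52 to 2.09 in HF-HI. The groups overlapped over nearly their whole range. The mean was 1.6 ± 0.293 in Sham and 1.65 ± 0.293 in HF-HI, a difference in mean log2 ratio of 0.05, smaller than the SD of either group (0.259 and 0.25 on that scale). Without Sham replicate 5 the Sham mean was 1.51 ± 0.218. The ratio was highest in HF-HI replicates 4, 6 and 7 (1.96, 1.93 and 2.09) and in Sham replicate 5 (2.08), the libraries with the least mt-Rnr2. The other shallow libraries, HF-HI replicate 2 and Sham replicate 3, had 1.32 and 1.46.

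Tested for each transcript as log2 of its normalized count (plus 1) minus that of mt-Rnr2, 0 of the 6 mRNAs had an unadjusted p under 0.05. The differences ranged from −0.12 for mt-Atp6 (95% interval −0.57 to 0.33, limma unadjusted p = 0.585, adjusted p = 0.662) to 0.07 for mt-Co1 (−0.29 to 0.43, limma unadjusted p = 0.699, adjusted p = 0.753), and that of mt-Rnr1 was 0.02 (−0.52 to 0.55). The interval of each of the 6 mRNAs spans a fall as large as its difference in level. A change of the mRNAs against mt-Rnr2 of that size could therefore not be told from none. In this comparison 3.76% of all transcripts had an unadjusted p under 0.05 and 0% passed the adjusted threshold (limma), with a median difference over all transcripts of 0.30, since every difference contains that of mt-Rnr2. Without Sham replicate 5 the share was 24.2%, and none of the RNAs described here was among them.

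The rRNAs also varied against each other. mt-Rnr2 over mt-Rnr1 ran from 1.63 over a median of 5.75 to 7.13 in Sham, and from 3.02 over 4.58 to 7.30 in HF-HI. Sham replicate 5 held the lowest ratio, with the most mt-Rnr1 and nearly the least mt-Rnr2 of all libraries, and HF-HI replicate 2 held the highest. The mean was 5.18 ± 1.96 in Sham and 4.86 ± 1.52 in HF-HI, a difference below the spread of either group. By contrast, mt-Co2 over mt-Co1 stayed between 0.258 and 0.334 over the 15 libraries. Over all 15 libraries, r between mt-Rnr1 and mt-Rnr2 was 0.152 and rho 0.261 (permutation p = 0.591 and 0.347, adjusted 0.591 and 0.347), 0.480 without HF-HI replicate 7 and Sham replicate 5, −0.477 within Sham (0.262 without Sham replicate 5, the opposite sign) and 0.492 within HF-HI. Between mt-Co3 and mt-Rnr2 r was 0.696 and rho 0.786 (permutation p = 0.00385 and 8.6e-04, adjusted 0.00825 and 0.00212), 0.707 without the same libraries, 0.674 within Sham (0.266 without Sham replicate 5), 0.735 within HF-HI and 0.515 within the 10 deeper libraries (adjusted permutation p = 0.329). For mt-Atp8 and mt-Rnr2 r was 0.252 and rho 0.271 (permutation p = 0.405 and 0.329, adjusted 0.434 and 0.347). Within the 10 deeper libraries mt-Co1 had the highest r with mt-Rnr2 of the 7 RNAs, 0.715 (rho 0.697, permutation p = 0.0110 and 0.0311, adjusted 0.166 and 0.233), and 0.592 without Sham replicates 5 and 6. Depth is shared by these values, and its part in the relations was not tested.

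**Figure D4:**
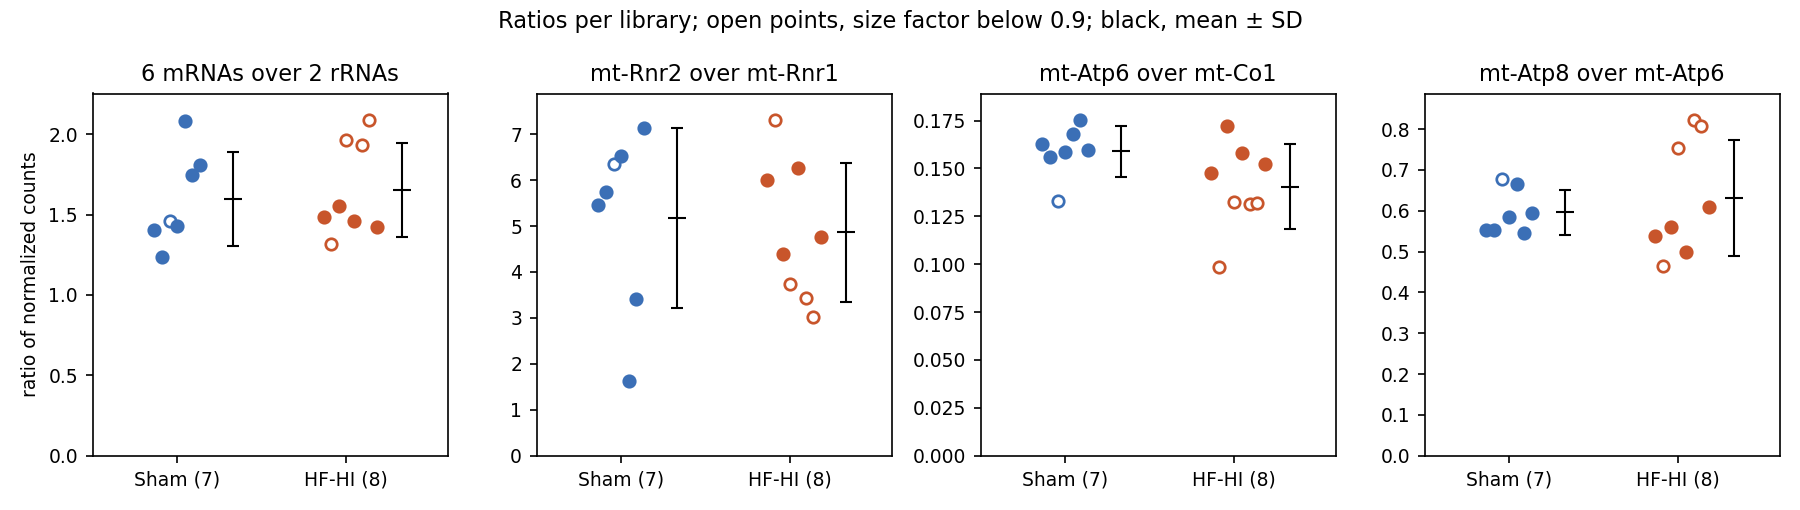
Ratios of normalized counts per library (axes from 0), for the 6 mRNAs over both rRNAs, mt-Rnr2 over mt-Rnr1, mt-Atp6 over mt-Co1 and mt-Atp8 over mt-Atp6, with libraries below a size factor of 0.9 as open points and the mean and SD of each group in black. The rRNA ratio of Sham replicate 5 (1.63) is the lowest point of its panel, and the 5 open points are the lowest for mt-Atp6 over mt-Co1.

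The mRNAs did not all move by the same amount in the shallow libraries. mt-Atp6 over mt-Co1 lay between 0.0984 and 0.133 in the 5 shallow libraries and between 0.148 and 0.175 in the other 10. mt-Atp8 over mt-Atp6, from the same RNA, was 0.755, 0.821 and 0.807 in HF-HI replicates 4, 6 and 7, the highest of all, and 0.466 in HF-HI replicate 2, the lowest. These ratios are descriptions without a test, and the division of reads in the 43 shared bases touches the second.

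HF-HI replicate 2 had its own pattern. Against the Sham mean on the log2 scale, it stood at −1.71 for mt-Atp8, −1.37 for mt-Atp6, −1.21 for mt-Cytb, −1.12 for mt-Rnr1, −0.93 for mt-Co2, −0.67 for mt-Co1, −0.67 for mt-Co3 and −0.49 for mt-Rnr2, so mt-Rnr2 was the least lowered. In HF-HI replicates 4, 6 and 7 mt-Rnr2 was instead the most lowered of the 8, at −0.77, −0.80 and −1.12, followed by mt-Atp6 at −0.60, −0.68 and −0.82. HF-HI replicate 2 was also 1 of the 4 libraries rich in Ttr. The other 3 (Sham replicates 1 and 2, HF-HI replicate 5) had mRNA values between −0.23 and 0.08 on the same scale, and the part of that tissue in the pattern was not tested.

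**Figure D5:**
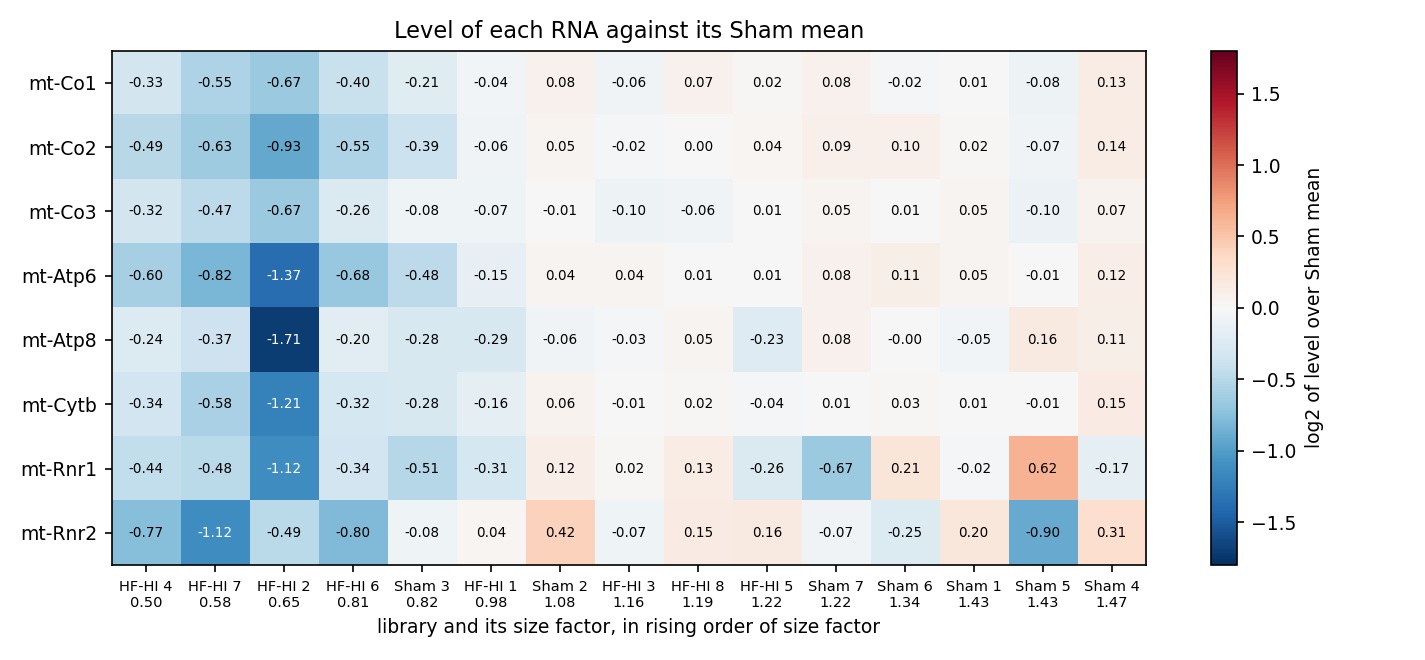
Log2 of the level of each RNA over its Sham mean (color and printed value) in the 15 libraries, ordered by size factor from left to right. The 5 libraries at the left are lowered in every mRNA, most in HF-HI replicate 2 (down to −1.71 for mt-Atp8), and the rRNA rows also show values far from 0 among the deep libraries at the right.

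The 7 complex I mRNAs give the rest of the mitochondrial genome. At an unadjusted p under 0.05, 2 of 7 were lower and none higher, against a background of 8.83% (3.9% lower), and with log2 size factor as a covariate 0 of 7 passed, against 5.14%. They had a median VSD difference without the covariate of −0.19, against −0.29 for the 8 RNAs described here and −0.00 for all transcripts. mt-Nd1, whose gene follows mt-Rnr2 on the genome, had mean normalized counts of 15629 ± 2186 in Sham against 11709.5 ± 2947 in HF-HI, and the fit gave a VSD difference of −0.39 (95% interval −0.69 to −0.10, limma unadjusted p = 0.0121, adjusted p = 0.433). With the covariate the difference of mt-Nd1 was −0.11 (−0.36 to 0.13) (limma unadjusted p = 0.349). mt-Nd3 had 10364 ± 1061 in Sham against 8867 ± 1554 in HF-HI (limma unadjusted p = 0.0490, adjusted p = 0.562), and with the covariate its difference was −0.07 (−0.28 to 0.15) (limma unadjusted p = 0.529). mt-Nd6 is the only mRNA read from the light strand, and had 344 ± 65.5 in Sham against 352 ± 79.7 in HF-HI normalized counts, a VSD difference of 0.01 (−0.09 to 0.11). In HF-HI replicate 2, where all 8 RNAs were low, mt-Nd6 stood at 385, above its Sham mean. The VSD scale compresses counts this low.

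The listed nuclear copies lay at a far lower level. Gm13340, the copy of mt-Co1, had 635 ± 84.1 in Sham against 552 ± 106 in HF-HI normalized counts, which is 0.556% of mt-Co1 over the 15 libraries. It spanned 395 to 582 in the 5 shallow libraries and 557 to 801 in the other 10, so these overlapped, unlike those of mt-Co1. Gm13341, the copy of mt-Co2, had 418 ± 65.8 and 366 ± 96.0, and it spanned 238 to 336 in the 5 shallow libraries and 395 to 527 in the other 10, the same separation as in mt-Co2. Both were named after their values were seen. Neither passed (limma unadjusted p = 0.0917 and 0.205, adjusted p = 0.620 and 0.730). Whether their reads came from the copies or from mitochondrial RNA was not tested. Gm10222, grouped here with the nuclear copies of mitochondrial DNA, had 404 ± 74.2 and 351 ± 112. It spanned 158 to 429 in the shallow libraries and 258 to 520 in the others, so those ranges also overlapped.

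Nuclear genes for the same complexes were counted at an unadjusted p under 0.05, against the background of 8.83% and a median VSD difference of −0.00 over all transcripts. Complex IV subunits had 0 of 13 higher and 1 lower (median −0.03), complex V subunits 1 of 28 higher and 1 lower (median −0.02), and complex III subunits with cytochrome c 0 of 10 higher and 0 lower (median −0.01). These medians cannot be set directly beside those of the more abundant mitochondrial RNAs, because the VSD scale compresses low counts. For Atp5j the log2 ratio of mean normalized counts was −0.41 and the VSD difference −0.15. The complex IV transcript that passed, ENSMUST00000155377 of Cox7b, is annotated with a retained intron and not as the coding mRNA, and had normalized counts of 438 ± 95.9 in Sham against 349 ± 59.8 in HF-HI (limma unadjusted p = 0.0371, adjusted p = 0.539). The structural subunits Cox7c and Cox7a2 followed, with 1148 ± 80.1 in Sham against 1054 ± 104 in HF-HI for Cox7c (limma unadjusted p = 0.0666, adjusted p = 0.596) and 904 ± 68.1 in Sham against 852 ± 49.8 in HF-HI for Cox7a2 (limma unadjusted p = 0.119, adjusted p = 0.661). In complex V a transcript of the catalytic beta subunit Atp5b annotated as processed and non-coding, ENSMUST00000126751, had 286 ± 199.8 in Sham against 536 ± 161 in HF-HI (limma unadjusted p = 0.00813, adjusted p = 0.404). Of the stalk subunits of ATP synthase, Atp5j had 506 ± 72.0 in Sham against 379 ± 126 in HF-HI (limma unadjusted p = 0.0194, adjusted p = 0.476) and Atp5h had 915 ± 48.4 in Sham against 844 ± 83.9 in HF-HI (limma unadjusted p = 0.0643, adjusted p = 0.594).

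In complex III the smallest p belonged to Uqcrfs1, the Rieske iron-sulfur subunit, with 656 ± 51.8 in Sham against 625 ± 47.6 in HF-HI normalized counts (limma unadjusted p = 0.264, adjusted p = 0.771). It was followed by Cycs, the cytochrome c that carries electrons to complex IV, with 1055 ± 65.4 in Sham against 1009 ± 90.0 in HF-HI (limma unadjusted p = 0.265, adjusted p = 0.772), and by the small subunit gene Uqcr10 with 392 ± 59.6 in Sham against 366 ± 58.9 in HF-HI (limma unadjusted p = 0.40, adjusted p = 0.840). No nuclear transcript of these complexes passed the adjusted threshold. With log2 size factor as a covariate, 0 of 13, 2 of 28 and 0 of 10 had an unadjusted p under 0.05, against 5.14% of all transcripts, and those of Cox7b, Atp5b and Atp5j described above were not among them (limma unadjusted p = 0.251, 0.118 and 0.357). Their summed levels did not separate the shallow libraries. Complex IV spanned 15462 to 19091 normalized counts in those 5 and 16693 to 18851 in the other 10, and complex V spanned 27521 to 28717 and 26302 to 28906.

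Genes that make, process or translate mitochondrial RNA were counted likewise. Those for mitochondrial DNA transcription and RNA processing had 0 of 19 higher and 0 lower (median −0.02), those for mitochondrial translation 1 of 47 higher and 1 lower (median −0.01), and complex IV assembly factors 0 of 8 higher and 0 lower (median −0.01). Tfam, which packages mitochondrial DNA and starts its transcription, had 216 ± 19.9 in Sham against 224 ± 19.4 in HF-HI normalized counts (limma unadjusted p = 0.471, adjusted p = 0.872). Lrpprc, which stabilizes mitochondrial mRNAs, had 639.9 ± 35.7 in Sham against 614 ± 64.0 in HF-HI (limma unadjusted p = 0.33, adjusted p = 0.807). The smallest p in the first list belonged to Mtpap, the mitochondrial poly(A) polymerase, with 239 ± 17.4 in Sham against 222 ± 17.2 in HF-HI (limma unadjusted p = 0.116, adjusted p = 0.657), followed by Ptcd2 with 162 ± 15.5 in Sham against 149 ± 17.7 in HF-HI (limma unadjusted p = 0.182, adjusted p = 0.717) and Ptcd1 with 174 ± 8.49 in Sham against 183 ± 12.1 in HF-HI (limma unadjusted p = 0.232, adjusted p = 0.754), RNA-binding proteins of mitochondria. Among mitochondrial ribosomal proteins, Mrps18a had 201 ± 14.3 in Sham against 227 ± 12.9 in HF-HI (limma unadjusted p = 0.00947, adjusted p = 0.408). Mrps33 had 335 ± 16.5 in Sham against 308 ± 23.0 in HF-HI (limma unadjusted p = 0.0363, adjusted p = 0.537). Mrps7 had 191 ± 23.2 in Sham against 169 ± 15.8 in HF-HI (limma unadjusted p = 0.0521, adjusted p = 0.569). Among assembly factors, Cox10, which acts on the way to the heme A of mt-Co1, had 136 ± 11 in Sham against 127 ± 16.8 in HF-HI (limma unadjusted p = 0.290, adjusted p = 0.784). The copper chaperone Cox17 had 206 ± 27.9 in Sham against 213 ± 17.4 in HF-HI (limma unadjusted p = 0.531, adjusted p = 0.889). Coa3 had 317 ± 32.7 in Sham against 329 ± 36.0 in HF-HI (limma unadjusted p = 0.536, adjusted p = 0.892). With the depth covariate 1 of 19, 0 of 47 and 0 of 8 passed, and Mrps18a and Mrps33 no longer did (limma unadjusted p = 0.0514 and 0.242). Polrmt, the mitochondrial RNA polymerase, and the mitochondrial tRNAs were not analysed here.

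Likeness of pattern was measured by Pearson's r of the VSD over the 15 libraries, as a description. The 15 libraries fall into the shallow and the deeper clusters for mt-Co1, mt-Co2, mt-Atp6 and mt-Cytb, so r over all 15 contains that separation, and for the 8 RNAs r is given within the 10 deeper libraries. With mt-Co1 it was 0.745 for mt-Co2, 0.718 for mt-Co3, 0.716 for mt-Rnr2, 0.660 for mt-Cytb, 0.473 for mt-Atp6, 0.208 for mt-Atp8 and −0.453 for mt-Rnr1. With mt-Rnr2 it was 0.515 for mt-Co3 and −0.529 for mt-Rnr1, the other rRNA. Outside the mitochondrial genome and its copies, the 5 most like mt-Co1 over the 15 libraries were Kcnt2 (0.90), Cggbp1 (0.886), AI504432 (0.879), Ubap2l (0.879) and Cdc73 (0.868), and the 5 most like mt-Rnr2 were Brk1 (0.920), Nsg1 (0.893), Cpne3 (0.878), Zfp160 (0.877) and Tbca (0.858). Within the 10 deeper libraries their r spanned 0.0181 to 0.678 for the first 5 and 0.736 to 0.892 for the others. Kcnt2, a potassium channel gene, had 693 ± 36.0 in Sham against 601 ± 74.7 in HF-HI normalized counts. These transcripts were picked for likeness to RNAs that were lower in HF-HI, so their own direction is not a separate result. The libraries share their depth, and the highest of so many values is high by selection.

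Other cell types and regions were followed by marker lists, as summed normalized counts. Cortical neuron markers (18 transcripts) spanned 13794 to 15654 in the 5 shallow libraries and 13872 to 15277 in the other 10, astrocyte markers (13) 40555 to 44274 in the 5 shallow libraries and 41383 to 46366 in the other 10, oligodendrocyte markers (18) 30533 to 33995 in the 5 shallow libraries and 27104 to 32990.1 in the other 10, and endothelial markers (6) 1263 to 1645 in the 5 shallow libraries and 1389 to 1559 in the other 10. Microglial markers (7) spanned 1969 to 2268 in the 5 shallow libraries and 1965 to 2310.3 in the other 10, blood markers (4) 483 to 1175 in the 5 shallow libraries and 486 to 1136 in the other 10, and striatal markers (20) 10313 to 16401 in the 5 shallow libraries and 8622 to 16341 in the other 10. None of these sums separated the shallow libraries as the 4 mitochondrial mRNAs did. At an unadjusted p under 0.05 (background 8.83%), striatal markers had 0 of 20 higher and 3 lower (median −0.04), astrocyte markers 0 of 13 higher and 1 lower (median −0.01), cortical neuron markers 1 of 18 higher and 0 lower (median 0.00) and microglial markers 0 of 7 higher and 1 lower (median −0.01), while oligodendrocyte, endothelial, blood and choroid plexus markers had none. The striatal transcripts that passed belong to Pde10a, Ppp1r1b and Penk, genes of striatal projection neurons, and Pde10a had 2560.2 ± 358 in Sham against 1821 ± 419.6 in HF-HI (limma unadjusted p = 0.00158, adjusted p = 0.311). The others were Aldoc of astrocytes, the upper-layer marker Rorb (higher) and P2ry12 of microglia. With the depth covariate 1 striatal and 1 cortical neuron transcript passed and none of the astrocyte or microglial lists. Pde10a passed (limma unadjusted p = 0.0121), while the p-values of Ppp1r1b, Penk, Aldoc, Rorb and P2ry12 were 0.197, 0.0977, 0.0602, 0.182 and 0.436 in the same limma fit. Whether the share of striatal tissue or of any cell type had a part in the mitochondrial RNA levels was not tested.

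Abundant nuclear and small noncoding RNAs, which rRNA depletion also leaves in the library, had 5 of 31 transcripts higher and 0 lower at an unadjusted p under 0.05, against 4.94% and 3.9% of all transcripts. Meg3 (ENSMUST00000146701), a nuclear long noncoding RNA of neurons, had 15027 ± 997 in Sham against 16860.4 ± 768 in HF-HI normalized counts (limma unadjusted p = 0.00122, adjusted p = 0.293), and Miat (ENSMUST00000182953), also a long noncoding RNA of neurons, had 399 ± 74.1 in Sham against 545 ± 104 in HF-HI (limma unadjusted p = 0.00465, adjusted p = 0.369). Malat1 (ENSMUST00000172812), the transcript with the highest mean in the table, had 138041 ± 6832 in Sham against 140933 ± 10054 in HF-HI (limma unadjusted p = 0.641, adjusted p = 0.921). Its values of 128572 to 142150.1 in the shallow libraries lay inside the 128170.1 to 158185 of the others. Another Malat1 transcript (ENSMUST00000174808) spanned 3235 to 4879 in the shallow libraries against 2315 to 3591, and the sum of all 31 transcripts 273401 to 312476 against 251111 to 285497, so both ends were higher in the shallow libraries and the ranges overlapped. With the depth covariate 3 of the 31 passed, Meg3 among them and Miat not (limma unadjusted p = 0.0127 and 0.0663). The part of these RNAs in the mitochondrial RNA levels was not tested.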

How the data were processed

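Cortical total RNA of 7 Sham and 8 HF-HI libraries was analysed. Per the study's methods, the authors made stranded libraries after rRNA depletion, aligned paired 100-base reads to mm10 with STAR, estimated reads per transcript with eXpress, which divides shared reads, and deposited the variance-stabilized data (VSD) of DESeq2, which are log2-scale values, for 10370 transcripts. The annotation release is not given in the sources used here. The VSD were inverted to normalized counts, reads and size factors (100.0% of values whole within 0.1 reads), and reads in the listed transcripts ranged from 3496103 to 10582858, which are not whole library depths. Names and sequences came from GENCODE M21 and GRCm38.

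Each transcript was tested on the VSD with limma 3.58.1 (R 4.3.3; two-sided, eBayes with trend, no covariate, positive where HF-HI is higher), and Benjamini-Hochberg adjusted p-values over the whole table were held to 0.1. Because the deposited unit is a log2 scale, no count model was the main test. The second test used log2(normalized count + 1) minus that of mt-Rnr2. SDs are over libraries. Correlations used 100000 permutations (two-sided, scipy 1.17.1). The replicate numbers of the labels were not treated as a pairing of libraries. Members and gene lists were chosen with earlier results of these data known. Named were the 8 RNAs, up to 3 transcripts of smallest p per list, Tfam, Lrpprc, and the 5 transcripts most like mt-Co1 and mt-Rnr2. Code was tested on simulated data. Alternatives changed the prior, scaling, value scale, filter, weights, depth, block, reference RNA and libraries. Protein sequences were not used here.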

Additional observations from a re-analysis of the deposited data

Results flagged for a closer look

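In Sham, replicate 3 lay far below the other 6 libraries for mt-Atp6, at 13166 normalized counts with the nearest at 18198, and for mt-Cytb, at 10917 with the nearest at 13187. The gap took up 0.740 and 0.595 of the Sham range, above the 95% critical value of Dixon's test. Sham replicate 3 is the only Sham library with a size factor below 0.9. In HF-HI, replicate 2 stood below the other 7 for mt-Atp8, at 3302 with the nearest at 8359, a gap of 0.640 of the HF-HI range. That library also stood apart on the first principal component of all transcripts. In all, 3 of 22 groups of values passed this test, and chance alone passes about 1 in 20.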

How the results depend on the processing

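Of the 8 differences between HF-HI and Sham, all stayed negative for mt-Co1, mt-Co3, mt-Atp6, mt-Atp8 and mt-Cytb under the 30 alternatives. The number of transcripts past the adjusted threshold (0 as reported, none of them among the 8 RNAs) became 1 with libraries above a size factor of 1 and 0 to 1 with a library left out (1 without HF-HI replicate 2, HF-HI replicate 5 or Sham replicate 5). The number of the 8 RNAs with an unadjusted p under 0.05 (5 as reported) fell to 1 with libraries above a size factor of 0.9 (mt-Atp8), with library weights (mt-Co3) or with quantile normalization (mt-Cytb). It fell to 0 with libraries above a size factor of 1, with log2 size factor as a covariate on either the VSD or log2(normalized count + 1), and with the replicate block together with that covariate, and it ranged from 1 to 6 with a library left out. Over all transcripts the count of 916 at that threshold became 533 with the covariate, 535 with it on log2(normalized count + 1), 464 with the block as well, 543 and 541 with size factors above 0.9 and 1, and 525 of 5438 with a mean of at least 300 normalized counts. That count was 916 with library weights, 903 with quantile normalization and 748 to 987 with a library left out.

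The difference of mt-Rnr2 (−0.31 as reported) became 0.11 and 0.12 with libraries above a size factor of 0.9 and 1, 0.018 with the covariate on either scale, and 0.11 with the block and covariate. That of mt-Rnr1 became 0.0092 with the covariate on the VSD and 0.012 with it on log2(normalized count + 1). The cause of these changes of sign was not tested. The settings that use a limit of 0.9, and the covariate on log2(normalized count + 1), were chosen after seeing the data. Relative to mt-Rnr2, the covariate gave −0.036 for mt-Co1, −0.088 for mt-Co3 and −0.0065 for mt-Rnr1. With a library left out, differences relative to mt-Rnr2 ranged from −0.081 to 0.12 for mt-Co2, −0.011 to 0.19 for mt-Co3, −0.20 to 0.020 for mt-Atp6, −0.17 to 0.11 for mt-Atp8, −0.087 to 0.13 for mt-Cytb and −0.083 to 0.27 for mt-Rnr1, the upper end coming without Sham replicate 5 except for mt-Atp8, where it came without HF-HI replicate 2. The number of transcripts past the adjusted threshold there was 0 to 1 (1 without Sham replicate 2). The difference in log2 mRNA to rRNA ratio (0.05 as reported) ranged from −0.11 to 0.12 over its 20 alternatives, moves below the spread between libraries. It was negative with libraries above a size factor of 1 or 0.9 (both −0.11) and without Sham replicate 2 (−0.0048), and highest without Sham replicate 5.

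Same-numbered libraries did not deviate together (correlations of −0.138 to 0.0905, with 1 of 7 numbers best with its own), so they were not treated as pairs. These correlations cannot exclude a pairing, because depth and single outlying libraries can also shape them. The replicate block left 5 of the 8 RNAs at an unadjusted p under 0.05 (with mt-Atp8 in and mt-Co2 out), against 891 of all 10370 transcripts. Together with the covariate, the block turned mt-Co2 to 0.0085 and mt-Rnr2 to 0.11. Relative to mt-Rnr2, the block gave 90 transcripts past the adjusted threshold against 0 without it, none of the 8 RNAs among them, and differences of 0.014 for mt-Co2 and 0.0079 for mt-Cytb. Depth limits these values little in counting error, since each of the 8 RNAs had at least 2146 reads in every library, and the spread between libraries sets the precision.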

Other observations

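The summed share of the listed normalized counts held by all 15 mitochondrial transcripts was 5.48 to 7.02% per Sham library and 3.85 to 6.62% per HF-HI library. The low end of HF-HI was replicate 2 and the low end of Sham was replicate 3.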
